A study of Mus musculus with 6 samples.

Results

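The genes described here encode the plasma membrane and lysosomal carriers of amino acids, amino acid transmitters, creatine and organic osmolytes. They were taken by name: all protein-coding genes whose symbol begins with Slc1a, Slc6a, Slc7a, Slc36a or Slc38a, with Slc3a1 and Slc3a2, the heavy chains that carry many Slc7a proteins to the cell surface. The rule gave 61 of the 54109 genes listed. Of these, 60 are carriers or their heavy chains. The remaining one, Slc7a6os, meets the rule by its symbol, is a neighbour of Slc7a6 and is not a carrier, so it is left out of the family counts and sums.

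Expression was measured by RNA-seq in Msc80, a mouse Schwann cell line, in 3 control cultures with the genotype Sox10 wt and 3 Sox10ko cultures, in which CRISPR/Cas9 editing was used to prevent expression of Sox10, the transcription factor that specifies and maintains the Schwann cell lineage. Both genotypes were grown in DMEM with fetal calf serum, and the labels name no other treatment. How many edited clones the 3 Sox10ko cultures represent is not given in the sources used here, so the p-values measure the spread between these cultures. The cultures are bulk samples, in which fewer cells of a type and less RNA per cell cannot be told apart.

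Amino acid carriers work in families with distinct driving forces. Slc1a proteins use the sodium gradient to take up glutamate or to exchange small neutral amino acids, Slc6a proteins take up transmitters, creatine, taurine and betaine with sodium and chloride, Slc7a proteins are either exchangers paired with an Slc3a heavy chain or carriers of cationic amino acids, Slc36a proteins move small amino acids with protons, and Slc38a proteins import or release glutamine and other neutral amino acids. In peripheral nerve, glial uptake of glutamate, GABA, creatine and taurine is a known property of Schwann cells and satellite cells. Several of these genes are known targets of ATF4, the transcription factor of the amino acid shortage response, and the betaine and taurine carriers are known targets of TonEBP (Nfat5), the transcription factor of the response to hypertonicity.

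A pair of promoters is printed to show such elements: Slc6a12 had the largest rise among the tested carriers, and Slc7a11 did not pass the test and ranged 4.2-fold within the Sox10ko group. Each sequence is the 250 bases before the transcription start given by RefSeq on GRCm38.p6, written 5′ to 3′ on the strand of the gene, with the matched element in capitals. The Slc6a12 sequence lies at chr6:121342324-121342573 on the plus strand and belongs to 1 of 5 windows of this gene. It holds a TonEBP element 75 to 65 bases before its RefSeq start, and no other window of the gene held this element. The sequence ends before the GENCODE start of the gene, at base 121343076. Which start was used in these cultures was not tested. The Slc7a11 sequence lies at chr3:50443614-50443863 on the minus strand and holds the ATF4 core TGATGNAA at 66 to 59 bases before the start and again, on the opposite strand, at 47 to 40 bases.
Slc6a12: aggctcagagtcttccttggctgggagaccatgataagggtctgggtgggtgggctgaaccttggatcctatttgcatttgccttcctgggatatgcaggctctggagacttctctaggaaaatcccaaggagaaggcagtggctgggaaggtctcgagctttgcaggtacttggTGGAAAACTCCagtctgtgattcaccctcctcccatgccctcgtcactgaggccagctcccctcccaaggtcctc
Slc7a11: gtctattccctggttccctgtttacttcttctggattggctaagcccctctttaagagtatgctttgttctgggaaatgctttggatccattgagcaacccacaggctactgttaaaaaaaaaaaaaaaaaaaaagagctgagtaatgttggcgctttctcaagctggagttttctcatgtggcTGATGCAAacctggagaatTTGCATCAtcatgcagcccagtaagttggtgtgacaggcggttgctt

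RefSeq windows of 250 bases before to 50 after a start were found for 44 of the 61 genes, 64 windows in all. The taurine carrier gene Slc6a6 had no window and was not searched, and the same holds for Slc6a8, Slc7a5, Slc36a2 and Slc38a1. On both strands, the ATF4 core TGATGNAA occurred in 5 of these windows (7.81%) and in 3.97% of the windows of all genes. It was found for Slc1a4, Slc6a21, Slc7a7 and Slc7a11, and in Slc1a4 the match TGATGCAA lay across the start on the opposite strand. The TonEBP element occurred in 7 windows (10.9%, all genes 4.96%), the NRF2 core TGACNNNGC in 10 (15.6%, all genes 12.4%) and a SOX core, ACAAAG or ACAATG, in 17 (26.6%, all genes 28.6%). No match of one of these motifs overlapped a match of another. These are matches of letters, and no binding was measured. Windows of a gene can overlap, so a site was counted more than once for Slc7a7 (ATF4 core), Slc7a6 (NRF2 core) and Slc7a9 (SOX core). The windows of all genes were counted in the same way.

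The libraries held between 32328618 and 41834431 reads assigned to genes, so that 1 read corresponded to 0.0235 to 0.03 CPM (counts scaled to library size with the TMM factors of edgeR). Sox10 itself stood at 606, 627 and 617 CPM in the control cultures and at 82.3, 67.5 and 116 CPM in the Sox10ko cultures, a fall of the transcript without its loss (log2 fold change -2.80, adjusted p = 0.000186, edgeR). Of 10 Schwann cell markers, the edited gene Sox10 among them, 8 fell and none rose. Their summed level, Sox10 included, was 4573 to 5128 CPM in control and 115 to 165 CPM in Sox10ko cultures. The labelled cell type therefore matched the control cultures, and its markers were low in the Sox10ko cultures. Of 5 smooth muscle markers 4 rose, from a sum of 0.759 to 1.03 CPM to a sum of 118 to 670 CPM, and for 3 of the 5 the low-count filter was met in the Sox10ko group alone, which fixed their direction. The summed level of 5 epithelial markers was 0.0813 to 0.256 CPM in control and 75.2 to 103 CPM in Sox10ko cultures, and the direction of both tested ones was fixed in the same way. Of 6 fibroblast markers, 2 were tested and 1 rose, and the summed level went from 117 to 235 CPM in control to 483 to 1685 CPM in Sox10ko cultures. The part of these differences in the carrier values below was not tested.

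Of the 61 genes, 28 had enough reads to be tested. Another 7 had no read in any library, 17 had 1 to 10 reads in all, and 9 more stayed below the low-count filter. Among the 28 tested genes, 7 rose in the Sox10ko cultures (Slc6a12, Slc1a4, Slc1a3, Slc1a2, Slc38a1, Slc38a6 and Slc36a2) and 2 fell (Slc6a8 and Slc7a8), at an adjusted p of 0.05 over all 15427 tested genes. That is 32.1% of the tested carriers and Slc7a6os together, against 32.0% of all tested genes, so the share that changed was no result about these genes. By direction, 25% rose against a background of 17.3%, and 7.14% fell against 14.7%. The values of the 2 groups did not overlap for 13 of the 28 genes (46.4%), against 49.3% of all tested genes. The median log2 fold change was 0.24, against 0.02 for all tested genes, and the median size of the change was 0.68 against 0.36 on that scale. Genes with few reads were among the 28, and these medians were not compared at equal levels of expression. Among the 14 that averaged 20 CPM or more, 2 changed, Slc1a4 and Slc6a8. For 3 of the changed genes, Slc6a12, Slc36a2 and Slc7a8, passing the filter rested on the group with the higher level, which fixed their direction.

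**Figure D1:**
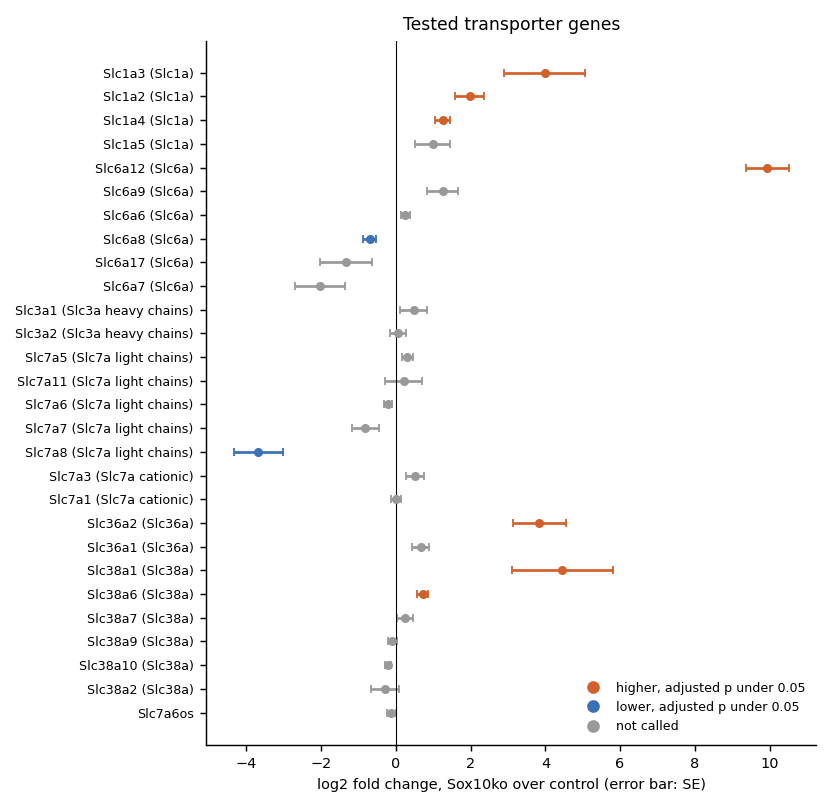
Log2 fold change (Sox10ko minus control, with its standard error) of the 28 tested genes, ordered within their families. Slc6a12 stands apart at 9.94, and among the 14 most abundant genes (20 CPM or more on average) 2 passed the test. The share of all genes at that level was not computed.

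The Slc1a family holds the high-affinity glutamate carriers and the neutral amino acid exchangers, and 3 of its 4 tested members rose, with none lower, against 17.3% and 14.7% of all tested genes. One of the 3, Slc1a3, lost its call in 7 of 12 alternatives. Slc1a4 (ASCT1, an exchanger of serine, alanine and cysteine, chr11:20302180-20332713, minus strand, GRCm38) was at 14.0, 22.5 and 18.8 CPM in control cultures and at 49.2, 35.6 and 46.7 CPM in Sox10ko cultures. All Sox10ko values lay above all control values, and the mean went from 18.4 ± 4.25 to 43.9 ± 7.25 CPM (SD, n = 3 each), 2.38-fold higher (log2 fold change 1.25 ± 0.20 SE, adjusted p = 0.00388, edgeR). It was called in 13 of 13 alternative settings.

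Both glutamate carriers that astrocytes are known for were low in control cultures. Slc1a2 (GLT-1, chr2:102658659-102790784, plus strand) was at 0.569, 0.666 and 0.684 CPM in control cultures and at 2.46, 1.36 and 3.76 CPM in Sox10ko cultures. The groups did not overlap, and the mean rose 3.95-fold, from 0.640 ± 0.0615 to 2.53 ± 1.20 CPM (SD, n = 3 each; log2 fold change 1.97 ± 0.40 SE, adjusted p = 0.00952, edgeR). Slc1a3 (GLAST, chr15:8634124-8710764, minus strand) was at 0.244, 0.615 and 0.342 CPM in control cultures and at 12, 6.78 and 0.399 CPM in Sox10ko cultures. Only Sox10ko replicates 1 and 2 were high, and replicate 3 lay inside the control range. The log2 fold change was 3.98 ± 1.08 (SE) with an adjusted p of 0.0281 (edgeR), and the call was lost when any single library other than Sox10ko replicate 3 was left out (adjusted p = 0.0518 to 0.106). The ratio of the means was 16.0 with all libraries, 8.97 without Sox10ko replicate 1 and 23.5 without replicate 3. The summed level of 5 astrocyte markers was 3.09 to 4.59 CPM in control and 12.9 to 23.3 CPM in Sox10ko cultures, without overlap. Of the 3 tested, Fgfr3 rose (log2 fold change 3.61, adjusted p = 0.000409, edgeR), Gfap fell (-2.30, adjusted p = 0.0195) and Aldh1l1 did not pass (0.43, adjusted p = 0.52). Aqp4 had 18 reads in control and 2 in Sox10ko cultures and Gjb6 had none, and the part of these markers in the Slc1a2 and Slc1a3 values was not tested.

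Slc1a5 (ASCT2), the glutamine exchanger of many dividing cells, was low in both genotypes. Its values were 0.624, 0.359 and 0.366 CPM in control and 0.539, 0.634 and 1.47 CPM in Sox10ko cultures, which overlapped (adjusted p = 0.16, edgeR). The other members, Slc1a7 with 25 and 16 reads, Slc1a1 with 1 read and Slc1a6 with none, were not tested. The summed level of the family was 15.5, 24.3 and 20.6 CPM in control cultures and 64.3, 44.5 and 52.6 CPM in Sox10ko cultures, without overlap, and most of it was Slc1a4.

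**Figure D2:**
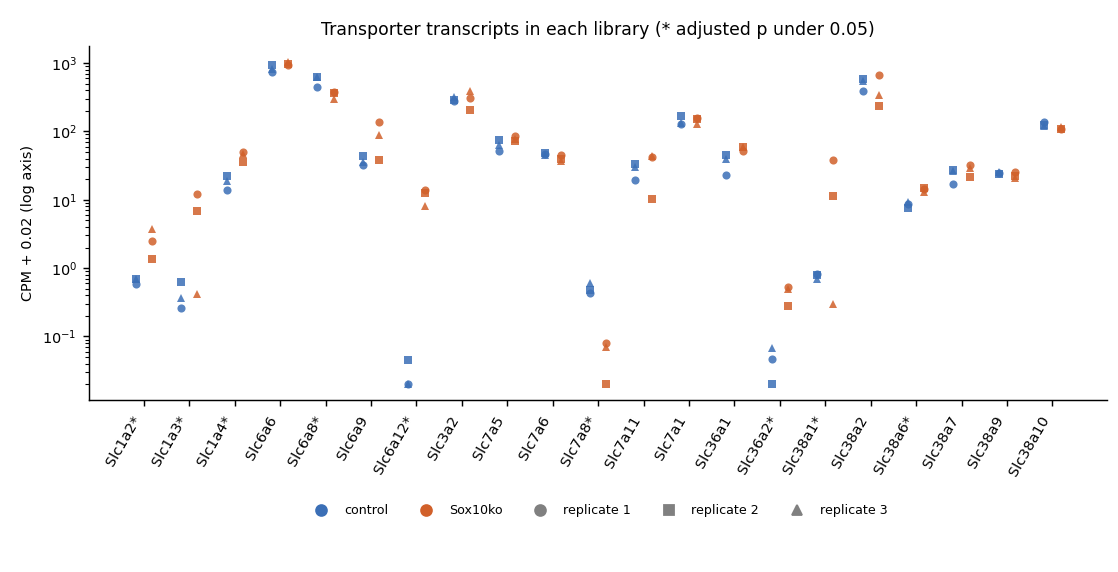
CPM plus a small constant (log axis) in each of the 6 libraries for the carriers named with values, control and Sox10ko side by side. Slc6a12 goes from at most 0.026 CPM in control to 8.2 to 13.7 CPM, while Slc38a1 and Slc1a3 are spread widely within the Sox10ko group.

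The Slc6a family holds the carriers of transmitters, creatine and osmolytes. It had 21 genes, 6 of them tested, with 1 higher and 1 lower (16.7% each, against 17.3% and 14.7% of all tested genes). Slc6a12 (BGT1, the carrier of betaine and GABA, chr6:121343076-121365775, plus strand, 17 exonic blocks) was at 0, 0.026 and 0 CPM in control cultures and at 13.7, 12.7 and 8.2 CPM in Sox10ko cultures. Over the control cultures it had 1 read, over the Sox10ko cultures 1327 reads, a ratio of 1336 with an exact 95% interval of 239 to 52798 for counting error. The fitted log2 fold change of 9.94 ± 0.57 (SE, adjusted p = 8.15e-05, edgeR) depends on the prior count. Without control replicate 2, which held the read, the gene was at least 299-fold higher against a floor of 3 reads over the control group. The ratio of the means was 1350 with all libraries and 900 without control replicate 1 or 3. The gene was called in 13 of 13 alternatives, and its direction in the main test was fixed by the low-count filter. Slc6a13 (GAT2), which ends 5342 bases before Slc6a12 on the same strand, had 11 reads in control and 31 in Sox10ko cultures and was not tested.

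Slc6a8, the creatine carrier (chrX:73673150-73682502, plus strand), was among the most abundant carriers of control cultures. It was at 443, 631 and 616 CPM in control cultures and at 379, 368 and 293 CPM in Sox10ko cultures. The groups did not overlap, and the mean was 1.62-fold lower, 563 ± 105 against 347 ± 46.8 CPM (SD, n = 3 each; log2 fold change -0.70 ± 0.17 SE, adjusted p = 0.0187, edgeR). The call was lost without control replicate 2 (1.53-fold lower, adjusted p = 0.0605, edgeR) and without control replicate 3 (1.55-fold lower, adjusted p = 0.0731). Slc6a6, the taurine carrier, stood at 733, 942 and 816 CPM in control and at 947, 971 and 1038 CPM in Sox10ko cultures. All Sox10ko values lay above all control values by a small margin, and the difference did not pass the test (log2 fold change 0.25 ± 0.12 SE, adjusted p = 0.156, edgeR).

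Slc6a9 (GlyT1, the glial glycine carrier) was at 32.3, 43.1 and 35.3 CPM in control cultures and at 138, 37.6 and 87.6 CPM in Sox10ko cultures. Replicates 1 and 3 of the Sox10ko group were above the controls and replicate 2 was among them, and the difference missed the threshold (log2 fold change 1.25 ± 0.42 SE, adjusted p = 0.0562, edgeR). Slc6a9 was called higher in 4 of 13 alternatives. These were DESeq2 (adjusted p = 0.00543) and, with edgeR, no low-count filter (0.0129), library size alone (0.0479) and without Sox10ko replicate 2 (0.00366). Over 27.8% of its exonic length this gene overlaps Ccdc24 on the other strand, which had 165 and 142 reads, and the strand setting of the counting is not given in the sources used here. Slc6a7, the proline carrier, was at 3.74, 4.12 and 4.32 CPM in control cultures and at 0.330, 0.422 and 2.22 CPM in Sox10ko cultures. All Sox10ko values were lower, those of replicates 1 and 2 by more, and the adjusted p was 0.0571 (log2 fold change -2.03 ± 0.68 SE, edgeR). It was called lower in 5 of 12 alternatives, with DESeq2 (adjusted p = 0.00448), limma-voom (0.014) and no low-count filter (0.0161) among them, and without Sox10ko replicate 3 the log2 fold change was -3.42 (adjusted p = 0.000854, edgeR). Slc6a17, a vesicular carrier of neutral amino acids, overlapped between groups (log2 fold change -1.34, adjusted p = 0.183, edgeR).

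The heteromeric exchangers pair a heavy chain, Slc3a1 or Slc3a2, with an Slc7a light chain. Neither heavy chain passed the test. Slc3a2 (CD98hc) was at 275, 284 and 323 CPM in control cultures and at 312, 207 and 392 CPM in Sox10ko cultures, which overlapped (log2 fold change 0.05, adjusted p = 0.894, edgeR). Slc3a1 (rBAT) was near 1 CPM in both (adjusted p = 0.35, edgeR), and 26.5% of its exonic length overlaps Prepl on the other strand, a gene with 5959 and 8216 reads.

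Of the 10 light chains, 5 were tested, none rose and 1 fell (20%), against 17.3% and 14.7% of all tested genes. Slc7a8 (LAT2, an exchanger of neutral amino acids, chr14:54722209-54781946, minus strand) was at 0.407, 0.461 and 0.586 CPM in control cultures and at 0.0599, 0 and 0.0498 CPM in Sox10ko cultures. These are 57 reads against 4, and the mean was 13.2-fold lower (log2 fold change -3.68 ± 0.65 SE, adjusted p = 0.00536, edgeR). The direction of Slc7a8, the light chain that fell, was fixed by the low-count filter in the main test. Slc7a5 (LAT1), the abundant carrier of large neutral amino acids, was at 51.6, 73.8 and 63.1 CPM in control cultures and at 84.9, 72.1 and 77.0 CPM in Sox10ko cultures. The groups overlapped and the adjusted p was 0.143 (edgeR). Slc7a6, the exchanger of cationic for neutral amino acids, was at 46.9, 48.3 and 44.5 CPM in control and at 44.7, 39.9 and 36.4 CPM in Sox10ko cultures (adjusted p = 0.184, edgeR), also with overlap.

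Slc7a11 (xCT), which imports cystine in exchange for glutamate and feeds glutathione synthesis, was at 19.5, 33.2 and 30.4 CPM in control cultures and at 42.2, 10.4 and 43.8 CPM in Sox10ko cultures. Sox10ko replicate 2 was the lowest of the 6 libraries and the other Sox10ko replicates were the highest, so the groups overlapped (log2 fold change 0.21, adjusted p = 0.778, edgeR). Slc7a7 (y+LAT1) was near 1 CPM (log2 fold change -0.82, adjusted p = 0.13, edgeR), and it overlaps Oxa1l on the other strand. The cationic amino acid carriers had 5 genes, 2 of them tested and neither called. Slc7a1 (CAT1), the main arginine and lysine carrier, was at 129, 169 and 134 CPM in control cultures and at 157, 150 and 129 CPM in Sox10ko cultures (log2 fold change 0.01, adjusted p = 0.948, edgeR). Slc7a3 (CAT3) was at 2.47, 3.56 and 3.59 CPM in control and at 5.69, 4.13 and 3.91 CPM in Sox10ko cultures, without overlap (adjusted p = 0.163, edgeR).

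The Slc36a family, the proton-coupled carriers of glycine, alanine and proline, had 2 tested members of 4. Slc36a2 (PAT2, chr11:55158470-55185077, minus strand) was at 0.0271, 0 and 0.0488 CPM in control cultures and at 0.509, 0.258 and 0.473 CPM in Sox10ko cultures. With 3 reads against 47 the ratio was 15.8 with an exact 95% interval of 5.08 to 79.2 for counting error. The ratio of the means was 16.3 with all libraries, 10.9 without control replicate 2 and 30.5 without control replicate 3. The fitted log2 fold change was 3.84 ± 0.70 (SE, adjusted p = 0.00609, edgeR), with its direction fixed by the low-count filter. Slc36a1 (PAT1), a lysosomal and plasma membrane carrier whose gene lies 19272 bases away, was at 23.3, 45.2 and 39.1 CPM in control cultures and at 51.5, 59.9 and 58.3 CPM in Sox10ko cultures. The groups did not overlap, but the difference missed the threshold (log2 fold change 0.66 ± 0.23 SE, adjusted p = 0.0644, edgeR). It passed in 5 of 13 alternatives, with DESeq2 (adjusted p = 0.0339), no low-count filter (0.0349), library size alone (0.0468) and without control replicate 2 (0.0458) among them.

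The Slc38a family of glutamine and neutral amino acid carriers had 11 genes, of which 6 were tested. Of these, 2 rose (33.3%) and none fell, against 17.3% and 14.7% of all tested genes. Slc38a6 (SNAT6, chr12:73286779-73354049, plus strand) was at 8.73, 7.56 and 9.35 CPM in control cultures and at 14.3, 14.9 and 13 CPM in Sox10ko cultures. The groups did not overlap and varied little within themselves, and the mean rose 1.65-fold, from 8.55 ± 0.911 to 14.1 ± 1.01 CPM (SD, n = 3 each; log2 fold change 0.72 ± 0.15 SE, adjusted p = 0.01, edgeR). It was called in 13 of 13 alternatives.

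Slc38a1 (SNAT1, a glutamine importer, chr15:96571418-96642913, minus strand) was at 0.813, 0.768 and 0.684 CPM in control cultures and at 38.2, 11.2 and 0.274 CPM in Sox10ko cultures. Replicates 1 and 2 of the Sox10ko group were far above the controls and replicate 3 was below all of them, a range of 139-fold within the group. The standard deviation of its log2 level in the Sox10ko group was 2.89, above that of 99.9% of the genes compared. The log2 fold change was 4.45 ± 1.35 (SE) with an adjusted p of 0.0420 (edgeR), and it was called in 6 of 13 alternatives, from an adjusted p of 0.00171 without Sox10ko replicate 3 to 0.398 with limma-voom. Leaving out any other single library ended the call (adjusted p = 0.0583 to 0.137, edgeR). The ratio of the means was 21.9 with all libraries, 7.61 without Sox10ko replicate 1 and 32.7 without replicate 3. Slc1a3 was also at the control level in Sox10ko replicate 3 alone.

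Slc38a2 (SNAT2), the carrier known to rise when amino acids run short, lies 44478 bases from Slc38a1. It was at 394, 584 and 541 CPM in control cultures and at 676, 231 and 338 CPM in Sox10ko cultures, with the highest value of all in Sox10ko replicate 1 and the lowest in Sox10ko replicate 2. The log2 fold change was -0.29 (adjusted p = 0.597, edgeR), and without Sox10ko replicate 1 the adjusted p was 0.0365 with a lower level in Sox10ko. Slc38a10 was at 139, 123 and 121 CPM in control and at 110, 108 and 114 CPM in Sox10ko cultures, lower in each but short of the threshold (log2 fold change -0.21 ± 0.09 SE, adjusted p = 0.133, edgeR). Slc38a7, a lysosomal glutamine carrier, was at 17.2, 27.2 and 26 CPM in control and at 32.5, 21.2 and 29.1 CPM in Sox10ko cultures (adjusted p = 0.46, edgeR). Slc38a9, the lysosomal arginine sensor of mTORC1, was at 24.6, 23.4 and 25.4 CPM in control and at 25.7, 22.3 and 20.8 CPM in Sox10ko cultures (adjusted p = 0.58, edgeR). The genotypes overlapped for Slc38a7 and for Slc38a9.

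Of the genes below the low-count filter, 4 held nearly all their reads in one genotype. With no low-count filter and with DESeq2, where all 4 could be tested, Slc7a13 and Slc7a2 were called higher and Slc38a3 and Slc7a14 lower. In some fits with a library left out, Slc7a13 was also called higher and Slc38a3 and Slc7a14 lower, and Slc7a2 was called in none of these. Slc7a13, a light chain of Slc3a1 in mouse kidney, had 1 read in control cultures and 25, 68 and 2 reads in Sox10ko cultures, a ratio of 95.6 with an exact 95% interval of 16.8 to 3816. Slc7a2 (CAT2), a cationic amino acid carrier, had 1 read in control cultures and 8, 39 and 9 in Sox10ko cultures, a ratio of 56.4 (9.71 to 2266). Slc38a3 (SNAT3), a glutamine carrier, had 32 reads in control and 2 in Sox10ko cultures, 15.9-fold fewer (4.06 to 137), and Slc7a14 had 29 and 2, 14.4-fold fewer (3.64 to 125). These intervals cover counting error only. No read was found for Slc1a6, Slc6a3 (the dopamine carrier), Slc6a14, Slc6a16, Slc6a21, Slc7a10 and Slc7a12. The serotonin carrier Slc6a4 had 5 reads and the glycine carrier Slc6a5 had 6, over the 6 libraries.

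Summed over the 60 carriers, the level was 2364, 3072 and 2858 CPM in control cultures and 3142, 2392 and 2742 CPM in Sox10ko cultures, means of 2765 ± 363 and 2759 ± 375 (SD, n = 3 each). The groups overlapped widely. A few genes made up most of it: Slc6a6, Slc6a8, Slc38a2 and Slc3a2 together held 78.1, 79.5 and 80.3% of carrier reads in control and 73.7, 74.3 and 75.2% in Sox10ko cultures. The share of Slc6a8 was 18.7 to 21.5% in control and 10.7 to 15.4% in Sox10ko cultures, and that of Slc6a6 was 28.6 to 31% and 30.1 to 40.6%. By family, the sums of Slc1a and Slc36a did not overlap between genotypes, at 20.1 ± 4.38 against 53.8 ± 9.96 CPM and 35.9 ± 11.3 against 57 ± 4.28 CPM. Most of the Slc1a sum was Slc1a4. Nearly all of the Slc36a sum was Slc36a1, at means of 35.9 and 56.6 CPM, which did not pass the test. Among all tested genes, 49.3% had groups that did not overlap. The Slc6a sum was 1436 ± 207 against 1433 ± 44.2 CPM and the Slc38a sum 691 ± 94.3 against 607 ± 257 CPM.

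**Figure D3:**
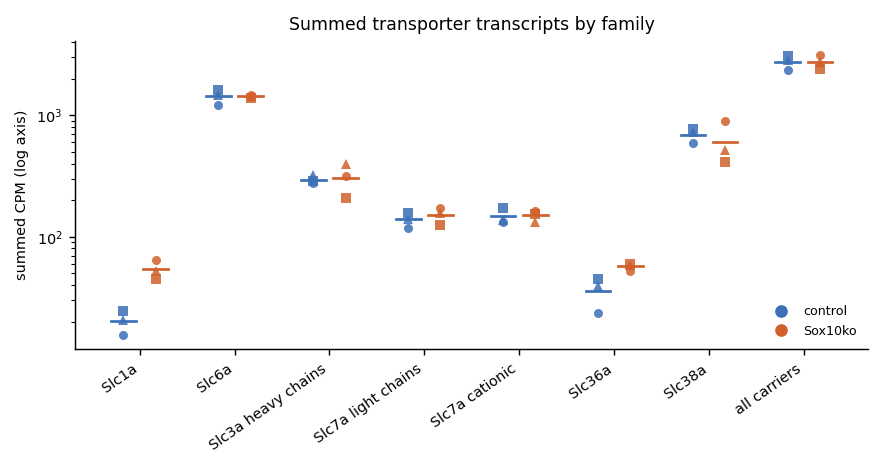
Summed CPM of each carrier family in each library on a log axis (circle, square and triangle for replicates 1, 2 and 3), with a line at the mean of each group. The Slc1a and Slc36a sums do not overlap between the genotypes, and are mostly Slc1a4 and Slc36a1, the latter not called. The Slc38a sum is spread most within the Sox10ko group.

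Per kilobase of exonic length, the order of the levels at the top changed between the genotypes. In control cultures Slc6a8 was highest at 108 ± 20.1 CPM per kb, followed by Slc6a6 at 98.2 ± 12.4, Slc3a2 at 83.4 ± 7.13 and Slc38a2 at 57.3 ± 11.2 (SD, n = 3 each), where Slc6a8 and Slc6a6 differed by less than their spread. In Sox10ko cultures Slc6a6 was highest at 117 ± 5.61 CPM per kb, followed by Slc3a2 at 86.1 ± 26.2, Slc6a8 at 66.5 ± 8.99 and Slc38a2 at 47 ± 26.3. There Slc3a2 and Slc6a8, and likewise Slc6a8 and Slc38a2, differed by less than the larger of their SDs.

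The abundant carriers also varied within each genotype, and this description was chosen after the values were seen. Of 17 carriers with a mean of at least 5 CPM, 12 (70.6%) had their lowest control value in control replicate 1, against 34.7% of all 10236 genes at that level, and 8 (47.1%) had their lowest Sox10ko value in replicate 2, against 33.9%, while 7 (41.2%) had it in replicate 3, against 30.9%. Slc6a12, with no read in control replicates 1 and 3, was counted among the 12. Slc1a4, Slc3a2, Slc6a9, Slc7a5, Slc7a11, Slc38a2 and Slc38a7 were lowest in both control replicate 1 and Sox10ko replicate 2, 41.2% of these carriers and 14.7% of all genes. Among 26 genes of amino acid synthesis and the ATF4 response at that level, 22 (84.6%) were lowest in control replicate 1 and 21 (80.8%) in Sox10ko replicate 2, with 19 (73.1%) lowest in both. The median departure from the group mean of log2(CPM + 0.5) was -0.17 for the carriers and -0.32 for the ATF4 list in control replicate 1, and -0.03 and -0.23 in Sox10ko replicate 2, so that the carriers as a set were not low there. Atf4 itself was at 228, 309 and 309 CPM in control and 359, 198 and 292 CPM in Sox10ko cultures.

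**Figure D4:**
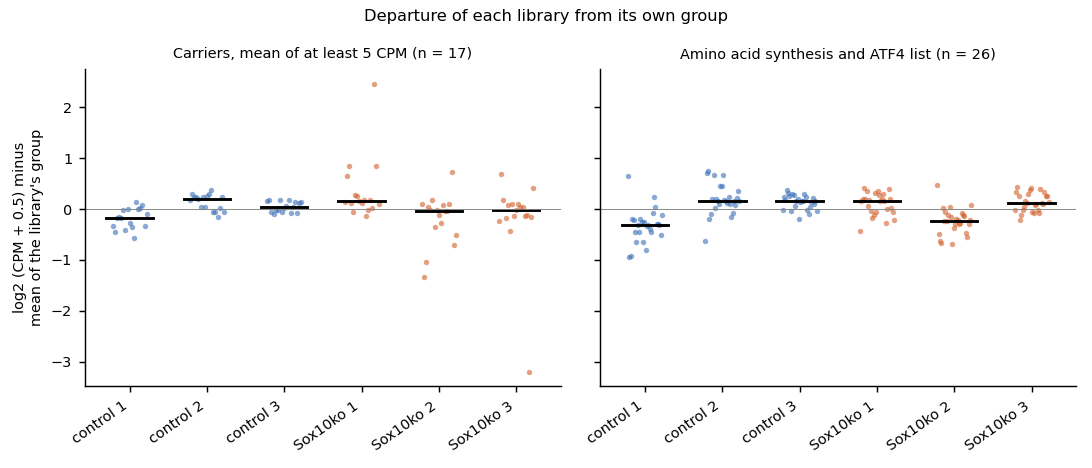
Departure of log2(CPM + 0.5) of each gene from its group mean, per library, for the abundant carriers and the ATF4 list. Control replicate 1 lies low for both sets (medians -0.17 and -0.32), and Sox10ko replicate 2 lies low for the ATF4 list (median -0.23).

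Genes around the carriers were counted in 8 lists, which together held 138 tested genes. Of these 35 rose (25.4%) and 14 fell (10.1%), against 17.3% and 14.7% of all tested genes. Among 15 other carriers of amino acids and transmitters, 3 rose and 1 fell: Slc43a2 (LAT4, a carrier of branched-chain amino acids) rose from 36.8, 38.8 and 34.0 to 90.7, 78.5 and 131 CPM (log2 fold change 1.45, adjusted p = 0.00166, edgeR), Slc17a7 (VGLUT1, the vesicular glutamate carrier) rose at a low level (1.6, adjusted p = 0.0358), and Slc18a2 (VMAT2, the vesicular monoamine carrier) fell (-0.72, adjusted p = 0.00843). In the list of amino acid synthesis and the ATF4 response, 6 of 27 rose (22.2%) and 1 fell (3.7%), against 17.3% and 14.7% of all tested genes. The median log2 fold change of this list was 0.44, against 0.02 for all tested genes. Nupr1 (log2 fold change 2.55, adjusted p = 0.00329, edgeR) and Ddit3 (1.64, adjusted p = 0.0138), both stress-response regulators, rose. Shmt1, the cytosolic serine hydroxymethyltransferase, fell (-0.82, adjusted p = 0.00191), and Asns, the asparagine synthetase, did not pass (adjusted p = 0.681).

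Enzymes that use the carried amino acids changed in both directions. Of 16 genes of glutamine, glutamate, GABA and arginine metabolism 5 rose (31.2%) and 1 fell (6.25%), against 17.3% and 14.7% of all tested genes. Ass1, which makes argininosuccinate on the way to arginine, was at 0.0813, 0.102 and 0.0488 CPM in control cultures and at 34.7, 17.3 and 17 CPM in Sox10ko cultures, 9 reads against 2575 (adjusted p = 8.48e-05, edgeR), with its direction fixed by the low-count filter. Odc1, the first enzyme of polyamine synthesis, rose (log2 fold change 0.53, adjusted p = 0.00661, edgeR), and Glul, the glutamine synthetase, fell from 149, 133 and 182 to 78.5, 67.2 and 84.7 CPM (-1.01, adjusted p = 0.00242). Of 15 genes of the list of glutathione synthesis and use 6 rose (40%) and none fell, against 17.3% and 14.7% of all tested genes. The median log2 fold change of the list was 0.56. The list also holds Nfe2l2 (NRF2), Keap1, Hmox1 and Nqo1, which are not enzymes of glutathione. Ggt5 is among the genes that rose, with its direction fixed by the low-count filter. The others included Gss, the glutathione synthetase (1.67, adjusted p = 0.00245, edgeR), Nqo1, an NRF2 target (3.41, adjusted p = 0.00365), and Gpx4, which reduces lipid peroxides (0.69, adjusted p = 0.00853).

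In the list of amino acid sensing upstream of mTORC1, 4 of 28 rose (14.3%) and 3 fell (10.7%), near the shares of all tested genes. Sesn3 rose (log2 fold change 1.47, adjusted p = 0.000798, edgeR), while Mios, a GATOR2 subunit (-0.94, adjusted p = 0.00243), and Fnip2, a folliculin partner (-0.88, adjusted p = 0.00758), fell. Of 11 osmolyte and tonicity genes 4 rose (36.4%) and none fell, against 17.3% and 14.7% of all tested genes. The water channels Aqp1, at 14.8, 68.6 and 10.7 CPM in control and 442, 506 and 544 CPM in Sox10ko cultures (log2 fold change 3.99, adjusted p = 0.00564, edgeR), and Aqp5 (3.88, adjusted p = 0.00191) were among them, with Akr1b3, the aldose reductase that makes sorbitol (0.47, adjusted p = 0.0231). Nfat5 itself did not pass (0.43, adjusted p = 0.0719, edgeR), and Slc6a6 and Slc6a12 are counted above.

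Of 17 tested receptors for glutamate, GABA, glycine and monoamines 4 rose (23.5%) and 5 fell (29.4%), against 17.3% and 14.7% of all tested genes. For 4 of the 17, Gabbr2 among them, passing the filter rested on the group with the higher level. The serotonin receptor Htr2a (log2 fold change -2.37, adjusted p = 0.000384, edgeR) and the kainate receptor subunit Grik3, at 114, 110 and 96.3 CPM in control and 34.5, 43.5 and 53.5 CPM in Sox10ko cultures (-1.29, adjusted p = 0.00158), fell. The GABA-B receptor subunit Gabbr2 went from 0.0813, 0.0768 and 0.0488 to 0.599, 1.62 and 1.64 CPM (adjusted p = 0.0016, edgeR). Among 9 partners and regulators of the carriers 3 rose and 3 fell (33.3% each, against 17.3% and 14.7% of all tested genes). Nedd4l, a ubiquitin ligase that regulates membrane carriers, fell from 365, 592 and 511 to 117, 99.3 and 121 CPM (-2.12, adjusted p = 0.000375, edgeR), Cd44, a variant of which binds xCT, fell (-1.22, adjusted p = 0.000185), and the kinase Sgk3 rose (1.01, adjusted p = 0.003).

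**Figure D5:**
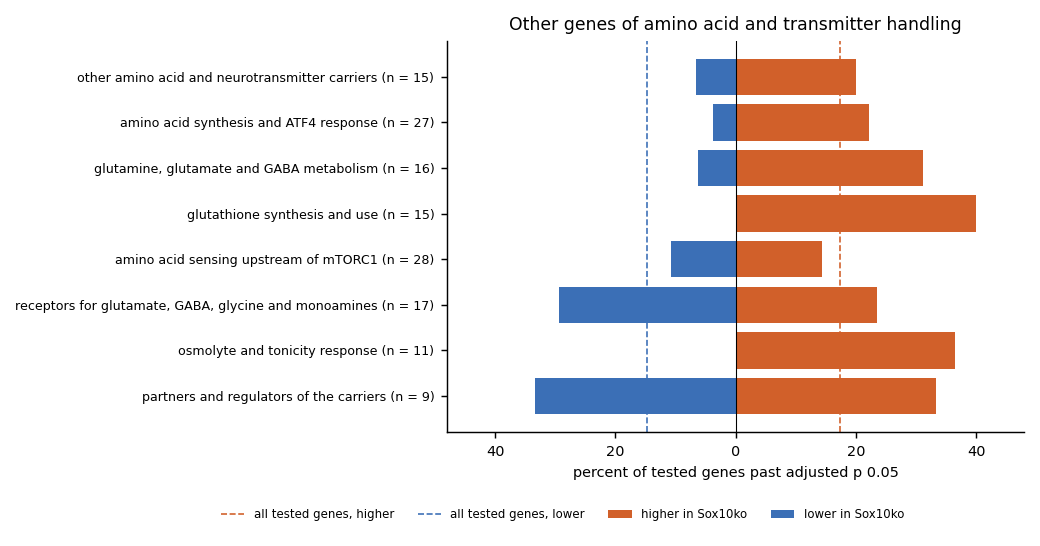
Percent of the tested genes of each list that rose (right) or fell (left) in Sox10ko cultures, with dashed lines at the shares of all tested genes, 17.3% and 14.7%. The glutathione and osmolyte lists held no gene called lower, and receptors and carrier partners changed in both directions.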

How the data were processed

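Per the labels' protocols, libraries came from total RNA with a stranded mRNA kit. The authors deposited raw read counts per Ensembl gene, 1 table per library. The tools named in the submitters' processing notes are DESeq2, HTSeq and STAR 2.6.0c, and the build is mm10 (GRCm38). For their settings, the strand option included, the sources used here give nothing, so genes that overlap on opposite strands are uncertain. Symbols and coordinates came from GENCODE on GRCm38 and promoter windows from RefSeq on GRCm38.p6.

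Counts were filtered with filterByExpr, scaled by TMM and tested with the quasi-likelihood F test of edgeR 4.0.16 (R 4.3.3), Sox10ko against control, all 6 libraries, no covariate. Tests were two-sided, with Benjamini-Hochberg adjustment over 15427 genes and a threshold of 0.05. The code was tested on simulated data. SE is the size of the log2 fold change divided by the square root of F. CPM and exonic length gave levels. Where a group had 1 to 3 reads, the pooled ratio has an exact (Clopper-Pearson) 95% interval. Where it had 0, the fold is a lower bound against 3 reads over that group. The libraries carry no molecular identifiers, so intervals cover counting error only. Replicates differed beyond sampling noise, with a chi-square per degree of freedom of 24.7 to 80.9.

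The genes and lists were chosen with earlier results of these data known. Named with values were genes past the threshold with a group mean of at least 1 CPM and genes with an overall mean of at least 20 CPM. From the lists, the 3 called genes of lowest adjusted p with a group mean of at least 1 CPM were named, with the leading gene of the opposite direction. Slc7a8, Slc36a2 and other genes below these levels, the untested genes, Asns, Aldh1l1, Atf4 and Nfat5 were named after their values were seen. Some items are not reported here. The alternatives, 13 in all, were other scaling, other filters, DESeq2 1.42.0, limma-voom (limma 3.58.1), a replicate block and leaving out each library.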

Additional observations from a re-analysis of the deposited data

How the results depend on the processing

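Of the carrier genes, 7 rose and 2 fell. The number higher was 11 with no low-count filter, 4 with a mean of at least 5 CPM, 11 with DESeq2, 9 with library size alone and 5 with limma-voom, and the number lower was 5, 1, 5, 2 and 3. Fewer or more genes enter under the other filters; the cause was otherwise not tested. Leaving out 1 library gave 5 to 8 higher and 1 to 5 lower, with 1 lower without control replicate 2, 5 without Sox10ko replicate 1 and 4 without Sox10ko replicate 3. Over all genes, 4939 were called, 2869 without control replicate 3, and 2869 to 4681 over the libraries left out. In the pathway lists 35 rose, and 18 to 41 did with 1 library left out, 21 without control replicate 1 and 18 without control replicate 3. Slc6a12, Slc1a4 and Slc38a6 were called in all 13 alternatives, and Slc1a2, Slc36a2 and Slc7a8 in the 12 that tested them. For Slc6a12, Slc36a2 and Slc7a8 the low-count filter fixed the direction in the main test. Replicate numbers are shared between the groups, but departures of same-numbered libraries correlated at -0.214, -0.1 and 0.074 over 10236 genes, so the numbers were not taken as pairs. Not every library correlated best with its own number: control replicate 1 did so with Sox10ko replicate 2 (0.192) and control replicate 2 with Sox10ko replicate 1 (0.169). With the replicate block 6 rose and 2 fell among the carriers, 27 and 13 in the lists, and 3537 genes were called in all. Slc6a8 (adjusted p = 0.0509), Slc1a3 (0.0789) and Slc38a1 (0.154) were then not called, and Slc36a1 (0.0396) and Slc6a7 (0.0359) were. No value changed sign among the called genes. With 1 read worth 0.0235 to 0.03 CPM, a difference in the 24 carriers with 10 or fewer reads was not detectable at this depth.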

Other observations

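A few genes of transmitter handling had nearly all their reads in Sox10ko replicate 2 and stayed below the low-count filter, which asks for enough reads in more than that library. Gabrb2, a GABA-A receptor subunit, had 2, 159 and 0 reads in Sox10ko replicates 1, 2 and 3 and none in control cultures. Gabra4 had 0, 19 and 0 reads in these cultures. Slc25a13, the mitochondrial aspartate and glutamate carrier, had 0, 16 and 0 reads in the Sox10ko cultures and 1 in control replicate 1. Among the carriers themselves, Slc7a13 and Slc7a2 also had most of their reads in that library, 68 of 96 and 39 of 57. With no low-count filter and with DESeq2 both of these carriers were called higher. All these genes were picked after their values were seen.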
